A study of Mus musculus with 11 samples.

Results

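The mouse miRNA families miR-297, miR-466, miR-467 and miR-669 were followed in cardiac macrophages before and after a heart injury. Members were the array entries whose name is one of these 4 family numbers followed by a letter, a hyphen or nothing. This gave 61 of the 1247 miRNAs on the array, of which 3 were miR-297, 23 miR-466, 12 miR-467 and 23 miR-669. The choice used names and no measured value. Most of these miRNAs are known as the large intronic cluster of Sfmbt2, and RefSeq's gene positions bore this out for most but not for all of them. Of the 61, 49 had every gene copy inside Sfmbt2, 3 had copies inside it and elsewhere (miR-297a-3p, miR-466f-3p and miR-466f-5p), and 1 (miR-466a-5p) matched no gene. The other 8 lie at other loci. These are miR-466i-3p and miR-466i-5p within Cdk13, miR-466q within Tnik, miR-467f within Fxr2, miR-467g within Grk4, miR-669n within Slc30a7, miR-466k within Gm31419, and miR-466j. The set is therefore treated as 4 families below, and not as the Sfmbt2 cluster.

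RNA came from GFP-positive macrophages sorted from the hearts of Cx3cr1GFP/+ mice aged 2 to 3 months, which carry GFP in place of 1 copy of the fractalkine receptor gene in every group. Infarction was modelled by cryoinjury, in which part of the heart wall is frozen. The 4 groups were Ly6Clow/CX3CR1high cells from hearts that had no surgery (day 0, 2 arrays), Ly6Chigh/CX3CR1low cells from day 3 after cryoinjury (3 arrays), and Ly6Clow/CX3CR1high cells from day 7 (3 arrays) and day 30 (3 arrays). Day 3 differs from the other groups both in time and in the sorted population, and the effects of time and population cannot be told apart. The uninjured group had no sham operation, so injury and surgery cannot be told apart either. Per the labels the replicates are independent biological ones. The labels do not say how many hearts went into each.

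A miRNA acts as the guide of the Argonaute complex, and its seed, bases 2 to 8 from the 5′ end, pairs with messenger RNAs that are then repressed. Sfmbt2 encodes a Polycomb group protein; it is an imprinted gene expressed from the paternal copy, best known in the placenta, and its intron holds a tandemly repeated array of miRNA hairpins found in rodents. Both arms of such a hairpin can give a mature miRNA (-5p and -3p). In macrophages, miR-466l is known for binding the 3′ end of the interleukin 10 message, and miR-467b for acting on lipoprotein lipase. Ly6Chigh cells in an infarct are the early, inflammatory cells derived from blood monocytes, while Ly6Clow macrophages prevail in the resting and the healing heart.

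The families are rich in simple repeats of CA or UG, and these letters recur in the results, so the mature sequences of detected members with an entry are shown first, each with its seed in capitals. Entries were matched by name for 7 of the 61 members and 1031 of the 1247 miRNAs on the array, and the sequences are RefSeq's for GRCm38.p6.
miR-466i-3p: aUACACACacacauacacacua
miR-466q: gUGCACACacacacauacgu
miR-467f: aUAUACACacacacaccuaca
miR-669n: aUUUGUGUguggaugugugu
The following are 3 miRNAs from outside the families, shown because they hold UGUGUG and were among the 4 whose signal ran closest beside that of miR-466i-5p (described further on).
miR-574-5p: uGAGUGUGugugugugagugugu
miR-1187: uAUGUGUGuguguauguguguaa
miR-3082-5p: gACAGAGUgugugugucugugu
They lie at chr13:17747552-17747573 (plus strand, miR-466i-3p), chr3:28419988-28420007 (plus, miR-466q), chr11:69635419-69635439 (minus, miR-467f), chr3:115979905-115979924 (plus, miR-669n), chr5:64970328-64970350 (plus, miR-574-5p), chr5:82798964-82798986 (minus, miR-1187) and chr17:25831406-25831427 (minus, miR-3082-5p).

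None of the 7 members with a sequence shared its seed with another of the 1031 matched miRNAs. All 7 lie outside Sfmbt2, and the other members had no sequence to compare. Seeds shared with those members could therefore not be seen, and the counts below cover no Sfmbt2 member. The longest run of alternating C and A was 11 bases in miR-466i-3p, 12 in miR-466q and 12 in miR-467f. The longest run of alternating U and G was 8 bases in miR-669n, 13 in miR-574-5p, 11 in miR-1187 and 10 in miR-3082-5p. The string UGUGUG, read on the mature strand, stood in 3 of the 7 members and in 16 of the 1024 other miRNAs with a sequence (1.56%). ACACAC or CACACA, which overlap each other, stood in 4 of the 7 and in 12 of the 1024 (1.17%). A match to these letters is a description of the sequence only.

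The arrays differed in overall brightness by up to 41.4-fold, and this bears on every value below. Brightness is given as the 75th percentile of the signal over the 126 miRNAs detected on all 11 arrays. Day 0 arrays were the dimmest (55.7 to 163 scanner units), followed by day 7 arrays (114 to 323), day 3 arrays (805 to 1607) and day 30 arrays (1453 to 2304). The number of miRNAs flagged as detected by the scanner software followed (151 to 173 on day 0 arrays, 208 to 270 on day 7 arrays, 301 to 338 on day 3 arrays, 290 to 340 on day 30 arrays). Each array was loaded with 100 ng of total RNA, so that fewer cells holding a miRNA and less of it per cell cannot be told apart. Myeloid miRNAs (3 on the array, among them miR-223-3p and miR-142a-3p) held 1.27% to 8.87% of the detected signal, and cardiomyocyte miRNAs (6) held 0.00726% to 0.0665%, with miR-208a-3p, miR-208b-3p and miR-499-5p detected on no array. Endothelial miRNAs (2) held 0.0428% to 0.202%, fibroblast and smooth muscle miRNAs (5) 0 to 0.221%, erythroid miRNAs (2) 0 to 0.0672% and lymphocyte miRNAs (2) 0.0423% to 0.183%. The myeloid share was highest at day 3, at 6.64% to 8.87%, and lowest at day 0 and day 7; its part in the results below was not tested.

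Most members were not detected on these arrays, and those that were seen fell into 3 patterns. Of the 61, 43 (70.5%) were detected on no array, against 852 (68.3%) of all miRNAs. The 18 detected on any array comprised 0 of 3 miR-297, 6 of 23 miR-466, 7 of 12 miR-467 and 5 of 23 miR-669 members. Neither arm of miR-466l, the member best known in macrophages, was detected on any of the 11 arrays, which says only that its signal lay below the detection limit. Each array gave 7 and 8 detected members at day 0, 16, 16 and 18 at day 3, 9, 8 and 8 at day 7, and 12, 10 and 10 at day 30. The counts at day 3 lay above those of every other array. Day 30 arrays detected about as many miRNAs in all as day 3 arrays (290 to 340 against 301 to 338). The 17 members detected on at least 2 arrays entered the tests (27.9%, against 29.6% of all miRNAs). Of those with copies only inside Sfmbt2, 12 of 49 were detected, and 2 of these, miR-466h-3p and miR-669p-3p, were detected on all 11 arrays. Among the 8 at other loci 5 were detected, of which 4 were detected on all 11 arrays.

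**Figure D1:**
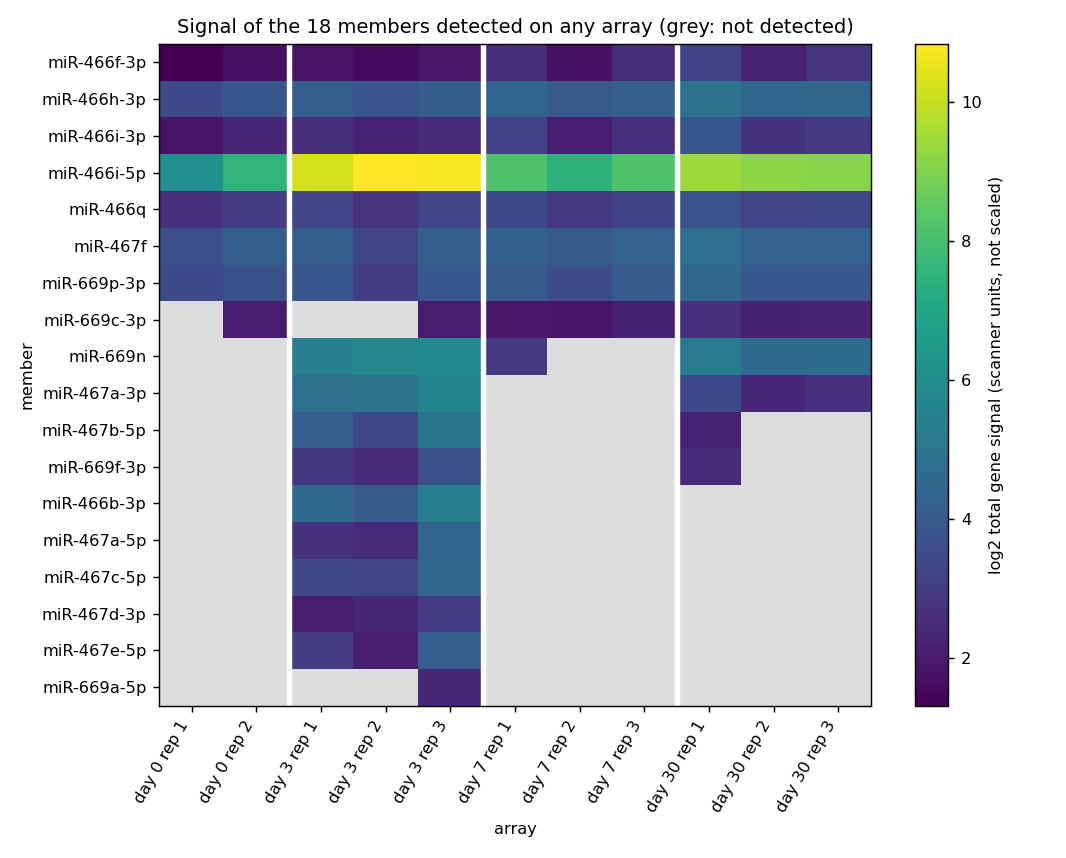
Log2 of the total gene signal in scanner units, without scaling, of the 18 members detected on any array (rows) on the 11 arrays (columns, with white lines between the groups); grey marks arrays where a member was not detected. The upper rows hold the members seen on all or most arrays, and the lower rows members seen on all day 3 arrays and on few or none of the others, except miR-669a-5p, which was seen on 1 array.

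The first pattern was a signal that hardly followed the brightness of the arrays. It was shown by 6 of the 7 members detected on all 11 arrays, which are miR-466f-3p, miR-466h-3p, miR-466i-3p, miR-466q, miR-467f and miR-669p-3p; this set was drawn after the values were seen. Their unscaled signal lay between 2.50 and 30.9 scanner units on every array, where the lowest signal flagged as detected was 1.36 to 2.39.

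The signal of miR-466q was 6.33 and 8.28 scanner units at day 0, 9.86, 6.99 and 9.84 at day 3, 10.9, 7.55 and 9.76 at day 7, and 14.0, 9.83 and 10.3 at day 30. That of miR-467f was 12.5 and 18.1 at day 0, 17.9, 9.86 and 18.4 at day 3, 19.6, 16.4 and 19.8 at day 7, and 27.5, 19.6 and 19.8 at day 30. In both, day 0, day 3 and day 7 overlapped, and day 30 lay above day 0 and, in miR-467f, above day 3 as well. The highest value was on day 30 replicate 1, which was also the brightest array.

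miR-466h-3p and miR-669p-3p, both from inside Sfmbt2, behaved alike. miR-466h-3p gave 10.7 and 15.04 at day 0, 17.8, 14.1 and 17.5 at day 3, 20.9, 15.8 and 18.6 at day 7, and 30.9, 21.5 and 21.8 at day 30. miR-669p-3p gave 10.9 and 13.2 at day 0, 14.6, 8.21 and 15.3 at day 3, 16.3, 11.8 and 16.0 at day 7, and 22.7, 15.5 and 15.1 at day 30. Day 3 overlapped with day 0 and with day 7 in both, although the day 3 arrays were brighter, and in miR-466h-3p day 30 lay above all other arrays.

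The dimmest of the 6 were miR-466f-3p and miR-466i-3p. miR-466f-3p gave 2.50 and 3.45 at day 0, 3.55, 3.05 and 3.81 at day 3, 5.89, 3.35 and 5.98 at day 7, and 9.09, 4.55 and 6.93 at day 30. miR-466i-3p gave 3.64 and 5.07 at day 0, 5.98, 4.53 and 5.69 at day 3, 9.12, 4.34 and 6.17 at day 7, and 14.7, 6.54 and 7.49 at day 30. Again the day 0, day 3 and day 7 values overlapped. The scanner error of miR-466i-3p was 1.11 on day 0 replicate 1 and 1.37 on day 3 replicate 2. No signal under 3.01 times its error was flagged as detected, so that these 2 values lay near the member's own limit.

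Over the 11 arrays the highest unscaled signal was 2.20 times the lowest for miR-466q, 2.77 for miR-669p-3p, 2.79 for miR-467f, 2.89 for miR-466h-3p, 3.64 for miR-466f-3p and 4.03 for miR-466i-3p. Over all 126 miRNAs detected on every array the median of this ratio was 26.8, and the 6 members took ranks 1, 5, 6, 7, 11 and 14 from the lowest. The slope of log2 signal on log2 brightness was 0.07 to 0.17 for the 6 and had a median of 0.73 over the 126. Dim signal goes with a small ratio in part: the 10 miRNAs outside the families whose mean signal lay in the same range had ratios with a median of 6.55, and 4 of them had a ratio no higher than that of miR-466i-3p.

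**Figure D2:**
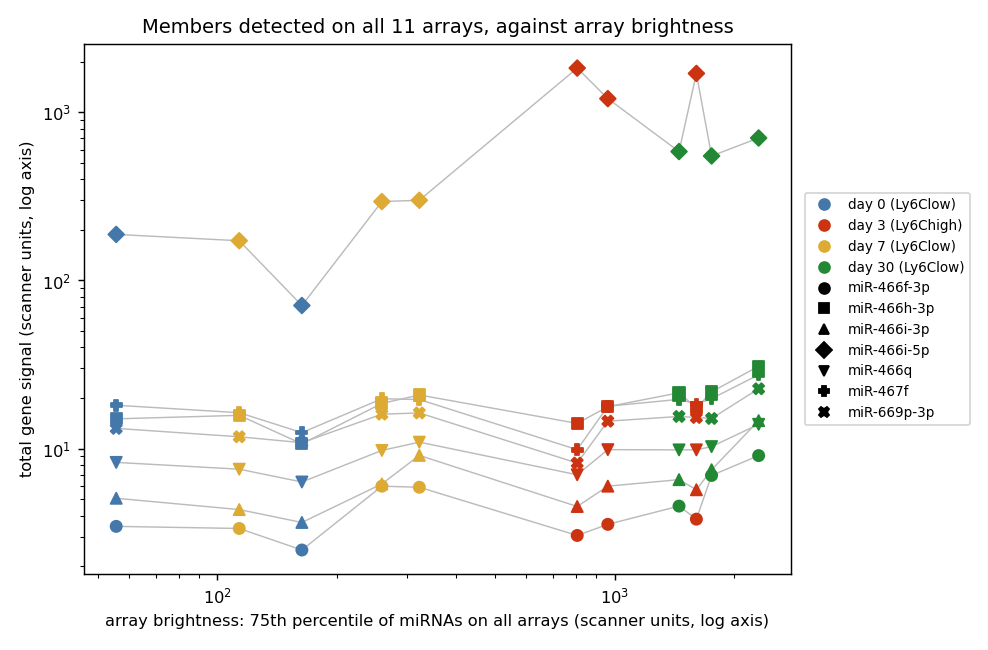
Total gene signal of the 7 members detected on all 11 arrays (marker shapes) against the brightness of the array, both in scanner units on log axes; colours are the groups and each point is 1 array. Signals of 6 members stay between 2.50 and 30.9 across the 41.4-fold range of brightness, while miR-466i-5p runs from 71.0 to 1833.

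What the comparisons say of these 6 members depends on the scaling. They were set apart for a signal that hardly followed brightness, and dividing such a signal by brightness lowers it on the brighter arrays. The scaled directions are thus built into the choice, and the p-values that go with them are no test of a change. After division by the array's brightness and log2 transformation they were lower at day 3 than at day 0 by limma, with changes of -3.52 to -3.13 (adjusted p = 0.000852 to 0.00199, 6 of 6 called). They were higher at day 7 than at day 3 (2.43 to 2.79, 6 of 6), lower at day 30 than at day 0 (-3.70 to -3.05, 6 of 6) and lower at day 30 than at day 7 (-2.85 to -2.48, 6 of 6). Within slide 1 and within slide 2 the scaled change from day 0 to day 3 was -2.47 to -2.21 and -4.73 to -3.94. Without scaling, the same contrast gave -0.02 to 0.37 for day 3 against day 0, 0.08 to 0.51 for day 7 against day 3 and 0.33 to 0.70 for day 30 against day 7, with 0 of 6 called in each. Day 30 against day 0 then turned upward, at 0.63 to 1.28, with miR-466f-3p, miR-466h-3p and miR-466i-3p called higher. With brightness as a covariate 0 of the 6 were called in any of the 6 comparisons. With the percentile taken over all miRNAs on the array the changes were -0.98 to -0.57 (2 of 6 called) at day 3 against day 0, -0.75 to -0.10 (0 of 6) at day 30 against day 0 and -1.22 to -0.86 (5 of 6) at day 30 against day 7. Quantile normalization gave -3.52 to -2.66, -2.98 to -2.13 and -2.18 to -1.19, and the authors' deposited table, fitted in the same way, -3.67 to -3.11, -3.07 to -2.18 and -2.22 to -1.21, with 6 of 6 called in each. Day 7 against day 3 was positive for all 6 under every scaling, from 1.21 to 1.49 with the percentile over all miRNAs (6 of 6 called), 1.66 to 2.72 after quantile normalization (6 of 6) and 2.18 to 2.82 in the authors' deposited table (6 of 6), and from 0.30 to 1.06 with brightness as a covariate. There the scaling decided size and call. Division raises a flat signal on the dimmer day 7 arrays in any case, so that no rise is read here either. In the comparisons with day 0 and at day 30 against day 7 it also decided direction for most of the 6, and no rise or fall is read from those. The division itself moved the median change of the 126 miRNAs from 2.73 without scaling to -0.77 with it at day 3 against day 0, and from -1.71 to 0.63 at day 7 against day 3.

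miR-669c-3p, from inside Sfmbt2, lay at the edge of detection with a similar unscaled level. It was not detected at day 0 replicate 1 and gave 4.14 at day 0 replicate 2, was seen at day 3 in replicate 3 alone (4.21), and gave 3.83, 3.70 and 4.49 at day 7 and 6.45, 4.51 and 4.65 at day 30. Detected values at day 0, day 3 and day 7 overlapped. At day 3 all its scaled values stood at the floor set under low signals, and so add no measured spread to the fit. Its scaled change of -3.28 at day 3 against day 0 (SE 0.71, limma adjusted p = 0.00353) became 0.61 with brightness as a covariate, which turned its direction. Without day 0 replicate 2 it was -1.78 and no longer called, since no day 0 array then detects it.

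The second pattern was detection at day 3. On all 3 day 3 arrays and on neither day 0 array, 9 members were detected: miR-466b-3p, miR-467a-3p, miR-467a-5p, miR-467b-5p, miR-467c-5p, miR-467d-3p, miR-467e-5p, miR-669f-3p and miR-669n. All of these but miR-669n have their gene copies inside Sfmbt2. The 9 are 50% of the 18 members detected on any array, and the same pattern held for 103 of 395 miRNAs detected on any array (26.1%). Detection on all day 3 arrays and on none at day 0 or day 7 held for 8 members (44.4%) and for 34 miRNAs in all (8.61%). Detection on all day 3 arrays and on no other array held for 5 members (27.8%), namely miR-466b-3p, miR-467a-5p, miR-467c-5p, miR-467d-3p and miR-467e-5p, and for 9 miRNAs in all (2.28%). Members were thus 5 of those 9. No member showed the reverse, detection on all day 30 arrays and none at day 3, which 24 miRNAs in all did. miR-669a-5p, a miRNA studied in muscle differentiation, was seen on day 3 replicate 3 alone, at 5.16 scanner units, and was not tested.

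miR-466b-3p gave 25.2, 17.2 and 40.7 scanner units on the 3 day 3 arrays and was not detected on any of the other 8. In unscaled signal the day 3 arrays therefore stood above all others. At day 30 it was at least 8.11-fold lower than at day 3 after scaling and at least 4.55-fold lower without scaling. Such a bound sets the mean of the brighter group against a detection limit on each array of the other group. The files give an undetected miRNA a signal equal to its error, and no signal under 3.01 times its error was flagged as detected, so the limit used here is 3.01 times the member's own error. With the lowest signal of any miRNA detected on the array as the limit, a choice that lies under what this member would need, the bounds would be 21.04-fold and 11.8-fold. The fits take the deposited signal, which lies under the limit. The fitted change, which stops at the floor, was -3.16 (SE 0.55, limma adjusted p = 0.00138), and within slides it was -3.25 and -2.98. All scaled day 30 values stood at the floor, so that the SE takes no measured spread from day 30. The within-slide values rest on that same floor. This also holds at day 30 for miR-467a-5p, miR-467b-5p, miR-467c-5p, miR-467d-3p, miR-467e-5p and miR-669f-3p below. At day 7 miR-466b-3p was at least 1.34-fold lower than at day 3 after scaling (6.82-fold without; limma adjusted p = 0.0075). At day 3 against day 0 the groups overlapped after scaling, and the change of 0.68 (adjusted p = 0.31) was not called; within slides it was 1.51 and -0.23.

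miR-467a-3p gave 28.4, 30.7 and 48.9 scanner units at day 3 and 10.95, 5.20 and 6.36 at day 30, and was not detected on the 2 day 0 or the 3 day 7 arrays. Every day 3 value lay above every day 30 value, by a factor that scaling enlarges. The change at day 30 against day 3 was -2.97 (SE 0.55, limma adjusted p = 0.00213), -2.66 and -3.40 within slides and -2.14 without scaling. At day 7 it was at least 2.53-fold lower than at day 3 after scaling (12.9-fold without; limma adjusted p = 0.00146). At day 0 it was at least 1.008-fold lower than at day 3 after scaling (11.4-fold without), with a fitted change of 1.60 (SE 0.55, limma adjusted p = 0.0269). This last call was lost without day 0 replicate 1 (0.87, adjusted p = 0.182) and without any 1 of the day 3 replicates (adjusted p = 0.0514 to 0.0733).

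miR-467b-5p gave 18.3, 10.4 and 32.7 scanner units at day 3 and 4.85 on day 30 replicate 1, and was not detected on the other 7 arrays. Day 3 lay above all other arrays. The change at day 30 against day 3 was -2.66 (SE 0.56, limma adjusted p = 0.00422), with -2.53 without scaling and -2.86 and -2.26 within slides; without day 30 replicate 1 the adjusted p was 0.0507. At day 7 against day 3 the change was -1.51 (limma adjusted p = 0.0326), but the scaled limit at day 7 lay above the day 3 mean, so that no fold is given; without scaling it was at least 4.81-fold lower. This call was lost without day 3 replicate 1 or 3 and without day 7 replicate 1 or 3 (adjusted p = 0.0868 to 0.125).

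The other 5 Sfmbt2 members of this pattern were dimmer. On the 3 day 3 arrays miR-467c-5p ranged from 9.90 to 23.3 scanner units, miR-467a-5p from 5.62 to 21.2, miR-467e-5p from 4.37 to 17.7, miR-669f-3p from 5.42 to 12.7 and miR-467d-3p from 4.32 to 7.86. Only miR-669f-3p was seen elsewhere, on day 30 replicate 1 (5.52). At day 30 against day 3, miR-467c-5p (at least 4.16-fold lower after scaling, limma adjusted p = 0.011) and miR-467a-5p (at least 2.85-fold, adjusted p = 0.0462) were called, and miR-467e-5p (at least 2.68-fold, adjusted p = 0.0537) and miR-467d-3p (at least 1.73-fold, adjusted p = 0.205) were not. The call of miR-467c-5p was lost without either day 30 sample (adjusted p = 0.0745 and 0.0991). That of miR-467a-5p was lost without any 1 day 3 replicate, day 7 replicate 3 or either day 30 sample (adjusted p = 0.0652 to 0.21), and with quantile normalization, no filter or brightness as a covariate. With slide as a block 9 members were called lower at day 30, with miR-467e-5p (-1.64, adjusted p = 0.0318), miR-669f-3p (-1.56, adjusted p = 0.0229) and miR-669n (-1.65, adjusted p = 0.0392) added to the 6. Without scaling 7 members were called lower at day 30, miR-467d-3p and miR-467e-5p among them. Over all 369 miRNAs, 108 were called lower with slide as a block and 55 without scaling.

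The day 30 arrays were not dimmer than the day 3 arrays: all 3 were brighter than 2 of the 3 day 3 arrays, and 2 were brighter than every day 3 array. The contrast of day 3 with day 30 kept its direction with and without scaling for the members called lower. Apart from miR-466i-5p, these members were grouped by their detection on all day 3 arrays, so that a lower day 30 level is in part built into the choice. Day 0 and day 7 arrays were dimmer, so that the detection limit after scaling was higher there, and for miR-466b-3p, miR-467a-5p, miR-467b-5p, miR-467c-5p, miR-467d-3p, miR-467e-5p and miR-669f-3p the scaled mean at day 3 lay below the limit at day 0, where no fold can be given.

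**Figure D3:**
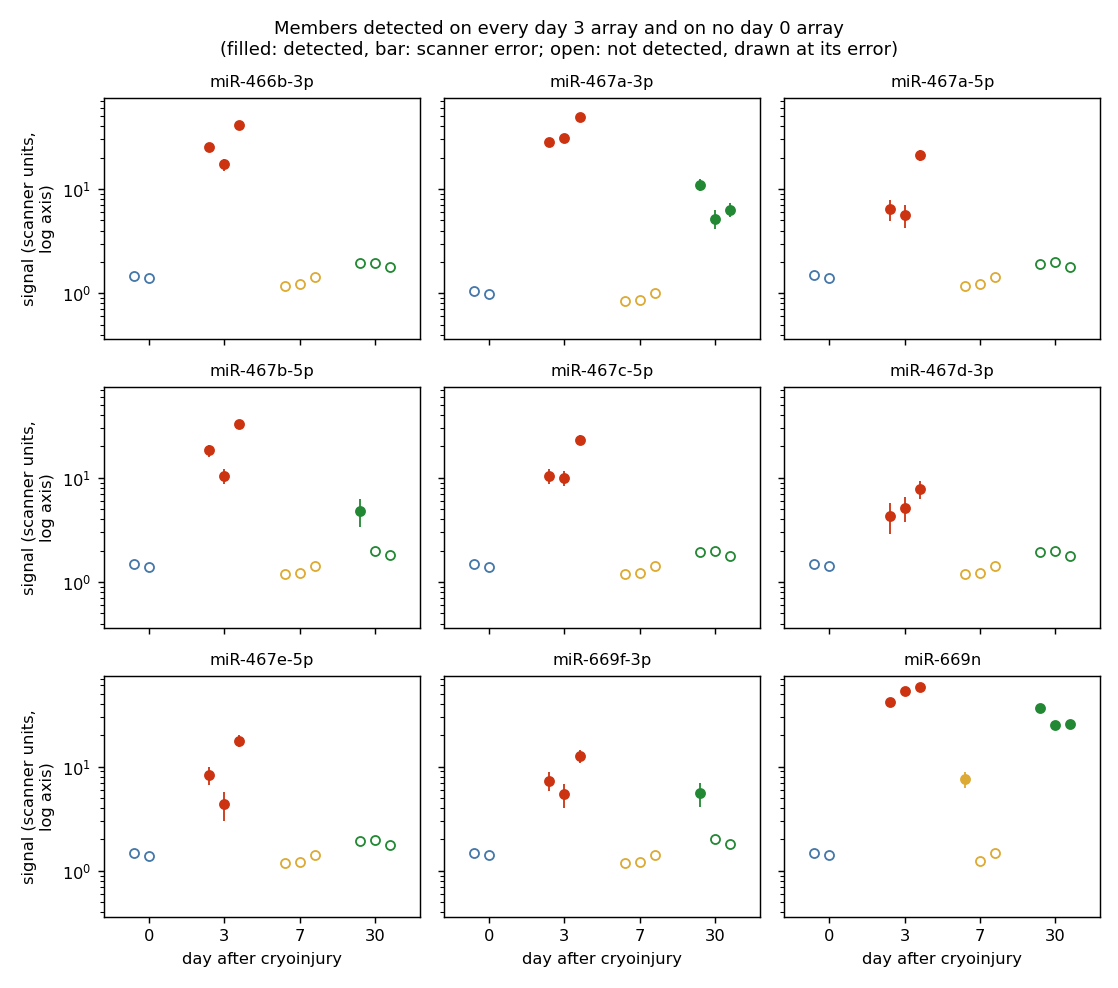
Unscaled total gene signal in scanner units (log axis) of the 9 members detected on all day 3 arrays and on no day 0 array, by day after cryoinjury; filled points are detected values with the scanner's error as a bar, and open points are arrays where the member was not detected, drawn at the deposited signal, which equals its error. All 9 are filled at day 3, 5 are open at every other day, and miR-669n stays filled at day 30.

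miR-669n lies outside Sfmbt2, within Slc30a7, which encodes a zinc transporter, and differed from the other 8. It gave 41.8, 52.8 and 58.4 scanner units at day 3 and 36.6, 24.96 and 25.5 at day 30, was seen at day 7 in replicate 1 alone (7.53), and was not detected at day 0. In unscaled signal day 3 lay above day 30, and day 30 above day 7. After scaling, day 7 replicate 1 (-5.42) lay above the day 30 arrays (-6.10 to -5.86), and the change at day 30 against day 7 was 0.49 (adjusted p = 0.526), against 3.25 without scaling. It was at least 1.03-fold higher at day 3 than at day 0 after scaling (11.6-fold without; fitted change 1.63, SE 0.61, limma adjusted p = 0.0375). Within slides this change was 2.13 and 1.38, and it was 0.89 (adjusted p = 0.25) without day 0 replicate 1. The call was also lost without any 1 of the day 3 or day 30 samples (adjusted p = 0.0529 to 0.111). At day 7 against day 3 the change was -2.05 (SE 0.55, limma adjusted p = 0.0119) and -3.98 without scaling. That call was lost without day 3 replicate 2 (-1.81, adjusted p = 0.0527) and without day 7 replicate 3 (-1.56, adjusted p = 0.0655). At day 30 against day 3 it was -1.57 (SE 0.61, adjusted p = 0.0678), which did not pass the threshold, and with slide as a block -1.65 (adjusted p = 0.0392), which did.

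The third pattern belonged to miR-466i-5p, from the same hairpin within Cdk13 as miR-466i-3p; Cdk13 encodes a kinase of RNA polymerase II. Its unscaled signal was 71.0 and 188 scanner units at day 0, 1207, 1833 and 1704 at day 3, 300.0, 172 and 295 at day 7, and 704, 585 and 550 at day 30, with a scanner error of 5.28 to 130. Without scaling the day 3 arrays were the highest and the day 30 arrays next, and neither overlapped with another group, while day 0 and day 7 overlapped.

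After scaling, its mean log2 level was 0.28 ± 2.09 (SD, n = 2) at day 0, 0.53 ± 0.58 (n = 3) at day 3, 0.23 ± 0.35 (n = 3) at day 7 and -1.60 ± 0.15 (n = 2, replicates 2 and 3 averaged) at day 30. Days 0, 3 and 7 did not differ beyond their spread, and day 30 was the lowest. The change was -2.14 at day 30 against day 3 (SE 0.70, limma adjusted p = 0.0364) and -1.83 at day 30 against day 7 (SE 0.70, adjusted p = 0.0468). Within slides the first was -1.92 and -2.68 and the second -1.75 and -2.09. Both calls rested on single samples. The first was lost when 1 sample was left out in 5 of 10 cases (day 3 replicate 1 or 2, day 7 replicate 3, and either day 30 sample; adjusted p up to 0.189) and stood at -1.30 (adjusted p = 0.0556) without scaling, and the second was lost in 7 of 10 cases (any sample of day 3 or day 30, and day 7 replicate 2 or 3; adjusted p up to 0.193) and turned to 1.35 (adjusted p = 0.0278) without scaling and to 1.61 with brightness as a covariate. The change at day 3 against day 0 was 0.26 (SE 0.70, adjusted p = 0.781) after scaling and 3.75 (adjusted p = 0.000171) without it. Within slide 1 and slide 2 the scaled change was 1.41 and -0.57. The 2 day 0 arrays lay far apart, and each decided what the comparisons with day 0 gave: without day 0 replicate 2, day 3 was higher by 1.73 (adjusted p = 0.0241), and without day 0 replicate 1, day 7 was lower, at -1.53 (adjusted p = 0.0306), where all samples gave -0.05 (adjusted p = 0.976). At day 30 against day 0 the change was -1.88 (adjusted p = 0.0517), -3.36 (adjusted p = 0.000372) without day 0 replicate 1, and 2.45 (adjusted p = 0.00196) without scaling.

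A measure that needs no scaling is the difference between the log2 signals of 2 miRNAs on the same array. For miR-466i-5p this difference was taken against each of the other 125 miRNAs detected on all 11 arrays, and its span over the arrays (highest minus lowest) was noted, as a description over 11 arrays that share brightness. The median span was 3.95, and the log2 signal of miR-466i-5p itself spanned 4.69. The smallest spans were those of miR-574-5p (0.73), miR-1187 (0.99), miR-202-3p (1.47) and miR-3082-5p (1.78). Of these 4, miR-574-5p, miR-1187 and miR-3082-5p hold UGUGUG, as their sequences above show, which 4 of 98 sequenced miRNAs outside the families detected on all arrays do. The fourth with the string was let-7b-5p, with a span of 2.45 at rank 17.

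miR-574-5p gave 23.2 and 53.2 scanner units at day 0, 500.1, 762 and 793 at day 3, 108, 48.4 and 97.1 at day 7, and 242, 190 and 186 at day 30. miR-1187 gave 5.85 and 21.1 at day 0, 181, 264 and 279 at day 3, 40.9, 21.9 and 40.4 at day 7, and 109, 82.0 and 73.7 at day 30. As for miR-466i-5p, both were highest at day 3 and next at day 30; day 0 and day 7 overlapped in miR-574-5p, and in miR-1187 they came close without overlap. miR-3082-5p gave 6.28 and 12.4 at day 0, 227, 369 and 356 at day 3, 38.3, 10.5 and 33.8 at day 7, and 141, 107 and 101 at day 30. It kept the same order of groups, with overlap between day 0 and day 7. These miRNAs were singled out after their values were seen, and the likeness is of signals on these arrays.

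**Figure D4:**
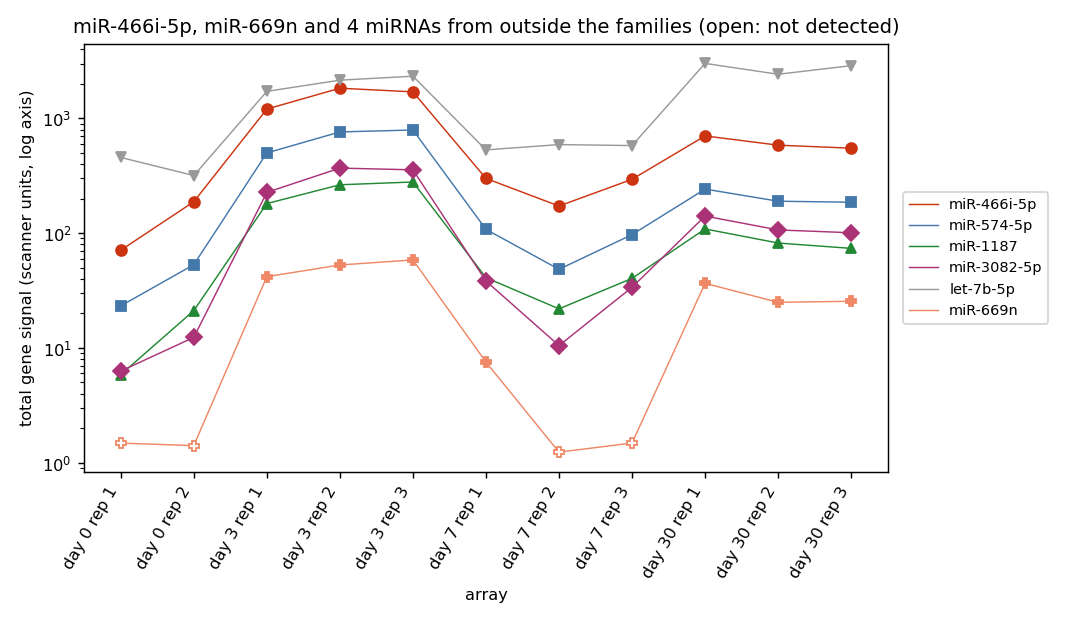
Unscaled total gene signal in scanner units (log axis) on each of the 11 arrays of the members miR-466i-5p and miR-669n and of miR-574-5p, miR-1187, miR-3082-5p and let-7b-5p from outside the families; open points are arrays where miR-669n was not detected. The lines of miR-466i-5p, miR-574-5p and miR-1187 run nearly in parallel, and let-7b-5p is highest at day 30 instead of day 3.

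Counted over the 6 comparisons, called members were those past an adjusted p of 0.05 in limma over 369 miRNAs and detected in the higher group. The comparisons share groups, and their counts are not independent. At day 3 against day 0, 2 of 17 members were higher (miR-467a-3p and miR-669n; 16.3% of all tested miRNAs) and 7 lower (17.3% of all). The 7 were the 6 flat members and miR-669c-3p. Without scaling 5 of these 7 turned direction and 0 were called lower. The exceptions were miR-467f and miR-669c-3p, and the latter turned with brightness as a covariate. Without scaling the split was 10 higher and 0 lower (250 and 1 of all 369 miRNAs). With the percentile taken over all miRNAs on the array it was 10 and 2 (189 and 4 of all 369). Quantile normalization gave 6 and 7 (93 and 56 of all 369). At day 7 against day 0, 0 of 17 members were called in either direction by limma (3.25% higher and 0.542% lower of all), with 8 at an unadjusted p under 0.05. These 8 were detected on no day 0 array and no day 7 array, so that no change is read from them.

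At day 30 against day 0, 0 members were higher and 7 lower (8.94% and 23.3% of all). A further 7 passed the threshold as lower but were not detected at day 0, and were not read as a fall. Without scaling the split was 6 and 0 (276 and 0 of all 369 miRNAs). At day 7 against day 3, 7 were higher and 4 lower (20.9% and 16% of all). The 4 were miR-466b-3p, miR-467a-3p, miR-467b-5p and miR-669n. Without scaling the split was 0 and 10 (2 and 206 of all 369). At day 30 against day 3, 0 were higher and 6 lower (9.76% and 21.1% of all). Without scaling the split was 0 and 7 (76 and 55 of all 369). Under each scaling tried and with brightness as a covariate, the members called in this comparison were all lower at day 30. At day 30 against day 7, 0 were higher and 8 lower (13.6% and 34.1% of all). Without scaling the split was 3 and 0 (234 and 10 of all 369). The median change of the 17 members was -1.45 at day 30 against day 3, where that of all tested miRNAs was -0.41, and -1.03 against -0.79 at day 3 against day 0. The first gap depends on which members enter, since 5 of the 17 were detected on day 3 arrays alone. With detection on at least 4 arrays the medians were -0.31 for members and -0.60 for all tested miRNAs. Among miRNAs detected on all 11 arrays they were -0.18 and -0.49. No lower day 30 level of the members as a set is read from these medians.

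**Figure D5:**
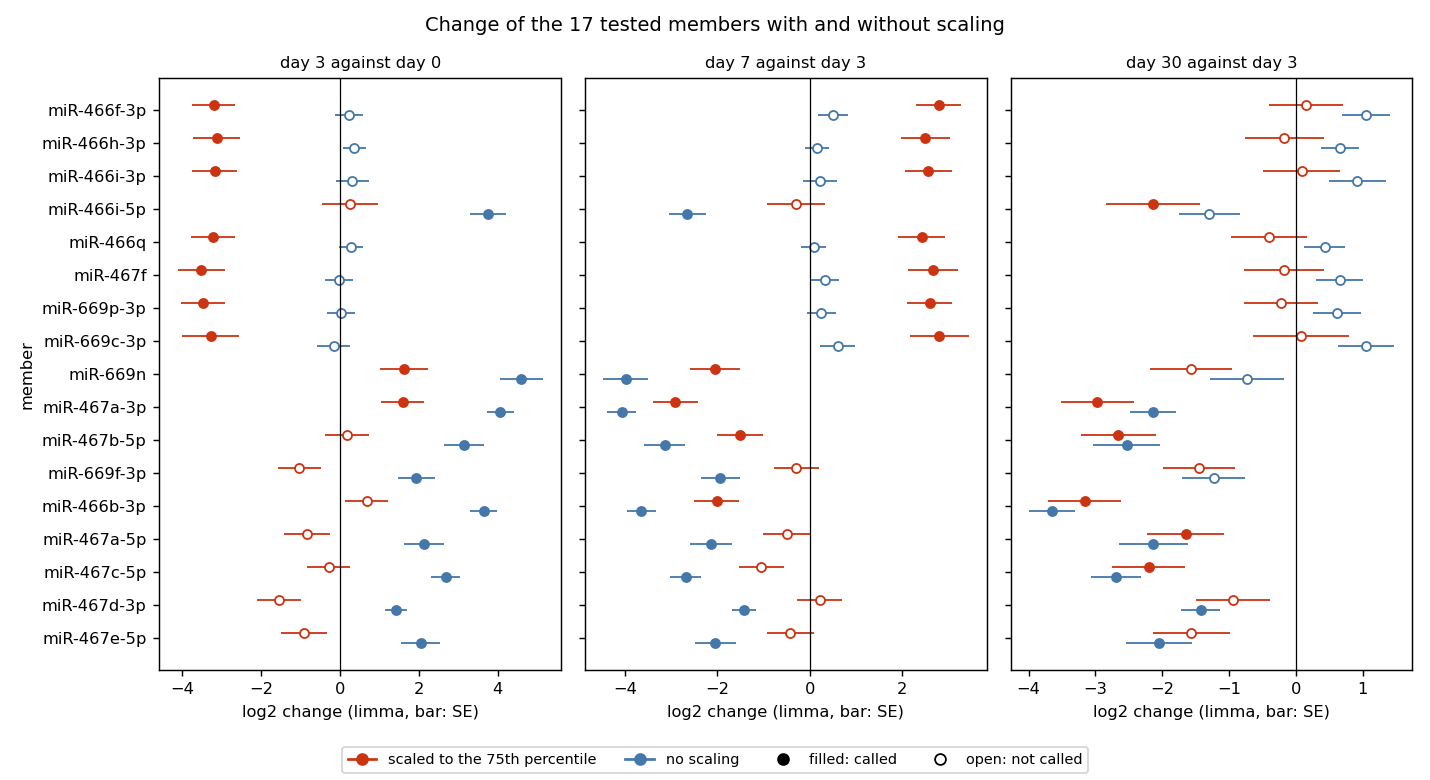
Log2 change with its SE (limma) of the 17 tested members in 3 comparisons, after scaling to the 75th percentile (red) and without scaling (blue); filled points were called. The 7 flat or nearly flat members at -3.52 to -3.13 in day 3 against day 0 move to about 0 without scaling, whereas in day 30 against day 3 miR-466b-3p, miR-467a-3p, miR-467b-5p, miR-467a-5p and miR-467c-5p lie to the left under both.

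Detected members together made up a small part of the miRNA signal, taken within each array without scaling. Their share of the summed detected signal was 0.99% ± 0.72 (SD, n = 2) at day 0, 0.85% ± 0.26 (n = 3) at day 3, 0.85% ± 0.28 (n = 3) at day 7 and 0.26% ± 0.02 (n = 2) at day 30. The day 30 arrays (0.245% to 0.299%) lay below every other array (0.476% to 1.5003%). Within every group the dimmest array held the highest share. That array was replicate 2 on slide 2 each time, so that brightness, slide and replicate number cannot be told apart here. At day 0 the share was 1.5003% at a brightness of 55.7 scanner units and 0.476% at 163. At closer brightness but on different slides, day 30 replicate 2 (1453, slide 2) held 0.299% and day 3 replicate 3 (1607, slide 1) held 0.713%. The part of brightness in the low day 30 share was not tested. Probes differ in response, so that this share is one of signal and not of molecules, and miR-466i-5p alone supplied 60.5% to 90.7% of the members' sum. For comparison, another large miRNA cluster, that of Dlk1-Dio3, had 5 of 47 entries tested and held 0.0717% to 3.17% of the signal, and entries of doubtful annotation held 15.2% to 26.1% of it on day 0 arrays, 13.1% to 23.5% on day 7 arrays, 4.85% to 6.23% on day 3 arrays and 5.11% to 5.603% on day 30 arrays.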

How the data were processed

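Images were read with Agilent Feature Extraction, per the submitters' processing notes. Per the file headers, the authors deposited for each array a total gene signal (an intensity in scanner units, not logged), its error and a flag of 0 or 1 for detection, for 1247 miRNAs and 21 controls, which were left out. The authors' deposited table of log2 values holds 317 miRNAs, 12 of them members, and served as an alternative. Members and lists were chosen with earlier results of these data known.

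To scale the arrays, the signal was divided by the 75th percentile, within the array, of those 126 miRNAs that all 11 arrays detected, raised to a floor (log2 of -8.53, the median over arrays of the lowest detected scaled signal) and logged. miRNAs detected on at least 2 arrays (369) entered 1 linear model of all 4 groups in limma 3.58.1 under R 4.3.3, with Benjamini-Hochberg adjustment over the 369 in each comparison, 6 residual degrees of freedom and a threshold of 0.05. For day 30, replicates 2 and 3 lay within the scanner's error of each other on the median over miRNAs (0.209 times the squared difference expected, against 2.74 to 43.1 for the other 9 replicate pairs) and were counted as 1 sample, leaving 10. Summed squares, which weigh large differences more, gave 1.18. Over 10 members the median log2 difference of this pair was 0.248, above the 0.110 and 0.145 of the other day 30 pairs. With 11 separate arrays the counts of called members were 9, 0, 8, 11, 9 and 8. Slides were taken from the array layout: slide 1 held day 0 replicate 1, day 3 and day 7 replicates 1 and 3, and day 30 replicate 1. Per-array values are given for members detected on all arrays and for the 3 called members with the largest change in each direction of a comparison; the other tested members are given by range and count. Within-slide values and slope fits carry no test. The fit was also run on simulated normal values. These had no floor, no undetected values and no differences in brightness, so that the run does not bear on those features. RefSeq was used for gene neighbours and mature sequences (GRCm38.p6). The marker lists covered myeloid, cardiomyocyte, endothelial, fibroblast and smooth muscle, erythroid and lymphocyte miRNAs, the Dlk1-Dio3 cluster and entries of doubtful annotation. The number of arrays limits precision.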

Additional observations from a re-analysis of the deposited data

How the results depend on the processing

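The count of called members in the 6 comparisons, 9, 0, 7, 11, 6 and 8 in the order used above, was recomputed under 11 alternatives. With the highest floor (log2 of -5.12) it was 2 at day 3 versus day 0 and 0 in each of day 30 versus day 0, day 7 versus day 3, day 30 versus day 3 and day 30 versus day 7; this floor lies above most scaled signals of the bright arrays. With brightness as a covariate it was 3 at day 3 versus day 0, 0 at day 30 versus day 0, 6 at day 7 versus day 3 and 0 at day 30 versus day 7. Of all 369 miRNAs, the covariate left 53 higher and 15 lower, 0 and 0, 8 and 50, and 12 and 1 in that order. The highest floor left 45 and 26, 38 and 30, 32 and 42, 23 and 30, and 40 and 49 in the comparisons named for it. Quantile normalization gave 1 at day 7 versus day 0, and the percentile over all miRNAs gave 2 at day 30 versus day 0. Detection on at least 4 arrays gave 3 at day 30 versus day 3 (fewer members enter), and no scaling gave 3 at day 30 versus day 7. Over all miRNAs tested, these settings left 29 higher and 9 lower, 195 and 4, 32 and 78, and 234 and 10 in that order. The cause of the other moves was not tested. Slide as a block gave 9, 0, 8, 12, 9 and 8. Without scaling the sign turned in 5 of the 9 members called at day 3 versus day 0, 7 of 7 at day 30 versus day 0, 8 of 8 at day 30 versus day 7 and none of those called at day 7 versus day 3 or day 30 versus day 3. Among the 26 changes of members named by the rule (the largest in each direction, and miR-466i-5p), those that turned were miR-669p-3p at day 3 versus day 0 (0.032), miR-467f (0.63), miR-669p-3p (0.64), miR-466q (0.71) and miR-466i-5p (2.45) at day 30 versus day 0, and miR-467f (0.33), miR-466q (0.35), miR-669p-3p (0.36) and miR-466i-5p (1.35) at day 30 versus day 7. With brightness as a covariate they turned for miR-669c-3p at day 3 versus day 0 (0.61), miR-467f (0.18) and miR-466q (0.073) at day 30 versus day 0, and miR-466i-5p at day 30 versus day 7 (1.61). Over these 26 changes and 542 alternative fits, 444 kept direction and call, 70 lost the call, 15 gained one and 13 turned.

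Leaving out 1 sample at a time gave 7 to 9, 0 to 8, 6 to 8, 9 to 12, 2 to 9 and 7 to 8 called members. At day 7 versus day 0 it was 8 without day 0 replicate 1. At day 30 versus day 3 it was 2 without day 30 replicate 1 and 3 without the averaged day 30 replicates 2 and 3; the lone sample left is then assumed to vary like the other groups. With 1 sample of the group left out, the group mean of the members' share ranged over 0.476% to 1.5003% at day 0 and 0.704% to 0.932% at day 3. It ranged over 0.720% to 0.995% at day 7 and 0.245% to 0.276% at day 30. With all samples, and all miRNAs in the sums, the mean at day 30 was 0.288%.

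Whether replicate numbers pair the samples was not settled: of 15 same-number pairs, 6 had deviations correlated above 0.1 (r from -0.25 to 0.50). The highest were those of day 0 with day 7, at 0.50 for replicate 2 and 0.47 for replicate 1. Replicate 2 of every group lay on slide 2, so that number and slide cannot be told apart there. With the replicate number as a block on 11 arrays, the counts were 9, 0, 8, 12, 9 and 8.

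Signal limits what can be said of the 43 members never detected and of those near the limit; the limit taken from a member's own error was chosen after seeing the data. The dimmest array, day 0 replicate 2, set the highest detection limit after scaling.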
